A study of Homo sapiens with 18 samples.

Results

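The high mobility group (HMG) proteins described here are HMGB1, HMGB2, HMGB3, HMGA1, HMGN1, HMGN2, HMGN3 and HMGN4, chosen by name and followed through every library of the series. They are 8 of the 60656 gene rows in the count table. The cells were CAMA-1 and ZR-75-1 (CAMA1 and ZR751 in the sample labels), established oestrogen receptor-positive breast cancer lines listed as wild-type. Cells of each line were given abemaciclib at 500 nM, palbociclib at 500 nM or an equal volume of the solvent DMSO for 5 days, which makes 6 groups of 3 libraries. Both drugs inhibit CDK4 and CDK6, the cyclin-dependent kinases that phosphorylate the retinoblastoma protein early in the cell cycle, and DMSO is the control that the drug groups of a line share. Every group had serum in its medium, and no group was untreated. The study describes the libraries of a group as independent biological replicates. Each line is a single cultured line, so a difference between lines is a difference between 2 cell populations and not between classes of tumour.

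HMG proteins are small, abundant, non-histone proteins that bind chromatin and alter how DNA is bent, packed and read. The HMGB proteins carry paired HMG boxes, folds that enter the minor groove and bend DNA, and they loosen the contact of linker histone H1 with the nucleosome. HMGA1 belongs to a separate branch: it has AT-hooks rather than an HMG box and binds AT-rich DNA. HMGN proteins bind the nucleosome itself and also compete with H1. HMGB1 has a further life outside the nucleus, as a signal released by dying, stressed and senescent cells, while HMGB2 is known for high levels in dividing cells and for its loss in senescent ones.

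RNA was read from the 3′ end of polyadenylated transcripts, so the counts do not scale with gene length and none were divided by it. Library totals ran from 2308442 to 4146549 counts. Levels are given as CPM, counts rescaled by the library total after TMM adjustment. Log2 fold changes, their standard errors (SE) and adjusted p values come from the quasi-likelihood test of edgeR, adjusted by Benjamini and Hochberg over all genes tested, and a gene was called at an adjusted p under 0.05. Across genes, replicates of a group correlated with Pearson's r of 0.974 to 0.982, with a chi-square of 1.83 to 5.18 per degree of freedom, so none were copies of each other. All 8 luminal epithelial markers were detected, with a summed level of 5344 to 8426 CPM. Endothelial and immune markers each had at most 3 counts in any library, as had 3 of 4 basal markers and 4 of 5 fibroblast markers.

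In GRCh38 coordinates of the GENCODE annotation, the members lay on 6 chromosomes. HMGB1 (ENSG00000189403) is at chr13:30456704-30617597 on the minus strand, HMGB2 (ENSG00000164104) at chr4:173331376-173334432 on the minus strand, and HMGB3 (ENSG00000029993) at chrX:150980509-150990771 on the plus strand. HMGA1 (ENSG00000137309) is at chr6:34236873-34246231 on the plus strand. HMGN1 (ENSG00000205581) is at chr21:39342315-39349647 on the minus strand and HMGN2 (ENSG00000198830) at chr1:26472440-26476642 on the plus strand. HMGN3 (ENSG00000118418) at chr6:79201245-79234689 on the minus strand and HMGN4 (ENSG00000182952) at chr6:26538366-26546933 on the plus strand share a chromosome with HMGA1. All are protein-coding genes. The identifiers are given without their version, which in the count table was older than in the annotation read for positions for HMGA1, HMGN2 and HMGN3. Most of them have processed pseudogenes, near-identical copies scattered over the genome, and the treatment of reads with several alignments was not given in the sources used here. Over the 18 libraries, pseudogene rows held 5.87% of the joint counts of HMGB1 and its 48 pseudogene rows and 5.08% for HMGB3. For the other members the share was 3.42% or less. Adding these counts to the parent gene changed no call of a member in the comparisons below.

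The sequence before the transcription start is shown for 3 members: HMGB3 and HMGN2, which fell with each drug in each line, and HMGN4, which was not called with either. Each is the 250 bases before an annotated start, 5′ to 3′ on the gene's strand, from RefSeq on GRCh38.p14. Capitals mark CCAAT, the CCAAT box bound by NF-Y, and TTTGAA, the cell cycle homology region (CHR) through which the DREAM complex acts on many late cell cycle genes.
HMGB3, chrX:150983085-150983334, plus strand: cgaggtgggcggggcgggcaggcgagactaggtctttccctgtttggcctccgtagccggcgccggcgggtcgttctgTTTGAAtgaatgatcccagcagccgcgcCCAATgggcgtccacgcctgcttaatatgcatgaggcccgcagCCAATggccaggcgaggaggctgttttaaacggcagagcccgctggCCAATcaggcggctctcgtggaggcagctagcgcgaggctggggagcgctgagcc
HMGN2, chr1:26472190-26472439, plus strand: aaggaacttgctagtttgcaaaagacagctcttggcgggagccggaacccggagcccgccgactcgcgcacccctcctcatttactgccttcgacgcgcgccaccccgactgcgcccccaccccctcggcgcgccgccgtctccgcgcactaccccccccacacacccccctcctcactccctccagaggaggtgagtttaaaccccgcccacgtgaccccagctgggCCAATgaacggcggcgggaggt
HMGN4, chr6:26538116-26538365, plus strand: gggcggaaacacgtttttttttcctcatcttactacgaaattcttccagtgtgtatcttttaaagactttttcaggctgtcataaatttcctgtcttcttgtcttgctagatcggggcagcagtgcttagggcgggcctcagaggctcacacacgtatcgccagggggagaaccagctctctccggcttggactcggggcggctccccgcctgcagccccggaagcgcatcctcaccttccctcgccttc
HMGB3 held 3 CCAAT boxes and a single CHR in this window, while the window at its other annotated start held neither. HMGN2 held 1 CCAAT box and no CHR, and HMGN4 held neither. RefSeq windows were read for 7 of the 8 members, 11 windows in all, with HMGB2 not among them, and both strands were searched. Of all 35116 windows of this length, 32.0% held a CCAAT box and 14.3% a CHR (TTTGAA or TTCGAA). Windows of HMGB1, HMGA1, HMGN1 and HMGN3 held a CCAAT box as well, and a second window of HMGB1 held a CHR. The E2F-type letters TTCCCGC or TTCGCGC or TTGCCGC or TTGGCGC were in none of the 11 windows and in 10.9% of all. The GC box GGGCGG was found in 42.6% of all windows. The windows shown held 2 for HMGB3, 1 for HMGN2 and 3 for HMGN4, which are not in capitals. Windows of HMGB1, HMGA1 and HMGN1 held it too, and that of HMGN3 did not. These are matches of letters and not measured binding sites.

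The first comparisons asked how each inhibitor changed these transcripts relative to DMSO. In CAMA-1, 7 of the 8 members fell with abemaciclib and the same 7 fell with palbociclib. HMGN4 was the member not called. In ZR-75-1, 5 members fell with each drug, namely HMGB1, HMGB2, HMGB3, HMGN2 and HMGN3. No member rose in any of these 4 comparisons, by edgeR (0 also at an unadjusted p under 0.05) or by DESeq2. Of all genes tested with abemaciclib, 20.1% were called lower and 20.3% higher in CAMA-1, and 18.3% lower and 17.9% higher in ZR-75-1. With palbociclib, 18.7% fell and 18.4% rose in the first line, while in the second 13.4% fell and 14.5% rose. The median log2 fold change of the 8 members was −0.53 and −0.51 in CAMA-1, compared with −0.91 and −0.49 in ZR-75-1, for abemaciclib and palbociclib, beside medians between −0.01 and 0.01 over all genes. In bulk RNA, fewer cells that express a gene and less of its RNA per cell cannot be told apart.

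**Figure D1:**
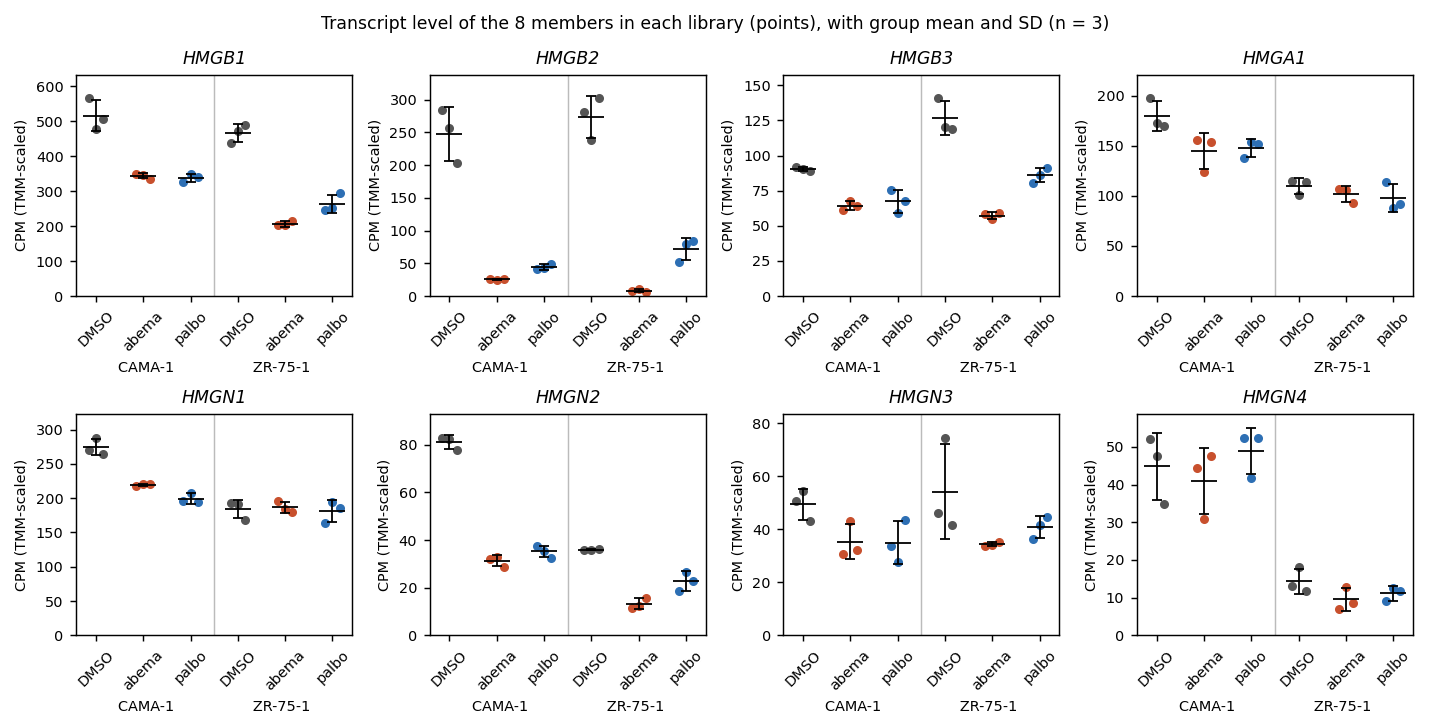
Level of each member in CPM (vertical axes, from 0, a separate scale for each gene) in the 18 libraries, by line and treatment; points are libraries, the long bar is the group mean and the whiskers are the SD (n = 3). HMGB2 fell from a mean of 247 to 25.5 CPM with abemaciclib in CAMA-1 and from 274 to 8.37 CPM in ZR-75-1, whereas the 9 ZR-75-1 libraries of HMGN1 overlap between treatments.

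HMGB2 changed most of the 8. In CAMA-1 its counts were 887, 764 and 882 with DMSO, 97, 58 and 83 with abemaciclib and 173, 148 and 145 with palbociclib. As levels, the DMSO libraries held 283, 256 and 203 CPM, the abemaciclib libraries 25.7, 24.9 and 25.9 CPM and the palbociclib libraries 41.6, 42.1 and 49.3 CPM. The 3 groups of the line did not overlap, and the abemaciclib libraries were the lowest. Relative to DMSO, it changed by −3.30 on the log2 scale with abemaciclib (SE 0.12, edgeR adjusted p = 5.15e-25), a 9.85-fold fall, and −2.51 with palbociclib (SE 0.11, edgeR adjusted p = 2.77e-22), a 5.71-fold fall.

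In ZR-75-1, HMGB2 had 857, 776 and 874 counts with DMSO, 23, 31 and 17 with abemaciclib and 186, 236 and 284 with palbociclib. The levels were 281, 238 and 302 CPM, then 7.63, 10.8 and 6.71 CPM, then 52.2, 80.0 and 83.6 CPM. Again no groups overlapped, and the abemaciclib libraries of this line were the lowest of the 18. The fall was 32.5-fold with abemaciclib (log2 fold change −5.02, SE 0.16, edgeR adjusted p = 2.65e-33) and 3.83-fold with palbociclib (−1.94, SE 0.11, edgeR adjusted p = 3.01e-21). Ordered from the most negative log2 fold change, HMGB2 stood 25th of 11053 genes with abemaciclib and 27th with palbociclib in CAMA-1, and 14th and 40th of 11017 in ZR-75-1.

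HMGB1, the most abundant HMGB transcript in every library, fell less. In CAMA-1 it stood at 565, 477 and 506 CPM with DMSO, 349, 346 and 336 CPM with abemaciclib and 326, 348 and 340 CPM with palbociclib. Both drug groups lay below DMSO and overlapped each other. On the log2 scale the changes were −0.62 (SE 0.069, edgeR adjusted p = 7.32e-10) and −0.64 (SE 0.069, edgeR adjusted p = 3.00e-10), falls of 34.8% and 35.9%. In ZR-75-1 the levels were 438, 472 and 490 CPM with DMSO, 202, 202 and 215 CPM with abemaciclib and 246, 250 and 294 CPM with palbociclib. All 3 groups were apart, with abemaciclib lowest. The changes were −1.19 (SE 0.077, edgeR adjusted p = 3.08e-19) and −0.83 (SE 0.075, edgeR adjusted p = 1.77e-13).

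HMGB3, the X-linked member that is best known from embryonic and stem cells, followed the same order within ZR-75-1. It stood at 92.0, 90.8 and 89.2 CPM with DMSO in CAMA-1, 61.1, 67.4 and 64.3 CPM with abemaciclib and 75.8, 59.2 and 67.3 CPM with palbociclib. The ZR-75-1 values were 141, 120 and 119 CPM with DMSO, 58.4, 54.5 and 58.8 CPM with abemaciclib and 80.8, 86.1 and 91.0 CPM with palbociclib. The drug groups lay below DMSO in each line. They overlapped each other in CAMA-1 and not in ZR-75-1. The log2 fold change in CAMA-1 was −0.53 with abemaciclib (SE 0.11, edgeR adjusted p = 8.52e-05) and −0.45 with palbociclib (SE 0.10, edgeR adjusted p = 5.62e-04). In ZR-75-1 it was −1.15 (SE 0.11, edgeR adjusted p = 1.64e-13) and −0.56 (SE 0.099, edgeR adjusted p = 9.89e-06).

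The unequal falls altered the make-up of the HMGB counts. With DMSO, HMGB2 gave 28.9% ± 3.04 of the summed HMGB1, HMGB2 and HMGB3 counts in CAMA-1 and 31.5% ± 2.46 in ZR-75-1 (SD, n = 3). With abemaciclib its share was 5.89% ± 0.20 in CAMA-1 and 3.09% ± 0.85 in ZR-75-1. With palbociclib it was 9.85% ± 0.82 and 17.0% ± 2.83. The share of HMGB1 moved the other way, from 60.5% ± 2.78 in CAMA-1 DMSO libraries to 79.3% ± 0.69 with abemaciclib and 75.2% ± 2.06 with palbociclib. In ZR-75-1 it went from 53.9% ± 2.94 to 75.9% ± 0.71 and 62.6% ± 2.40. These shares are of counts in a library and were not tested.

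**Figure D2:**
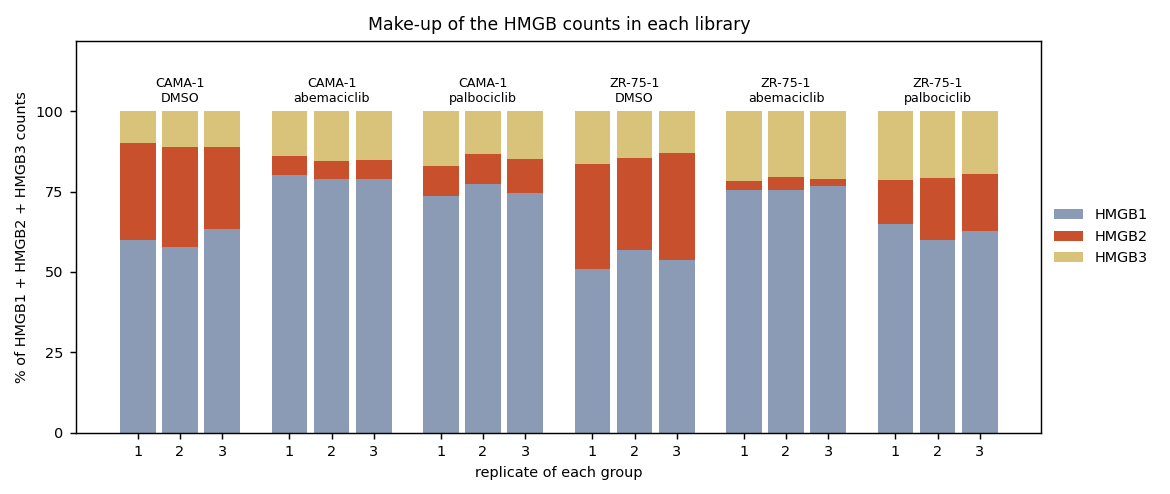
Share of HMGB1, HMGB2 and HMGB3 in their summed counts (vertical axis, percent), a stacked bar for each of the 18 libraries, by group and replicate number. HMGB2 takes 25.4% to 33.2% of the bar in the 6 DMSO libraries and 2.39% to 19.2% in the 12 drug libraries.

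HMGN2, a nucleosome-binding protein, had the next largest fall in 3 of the 4 comparisons with DMSO. It stood at 83.0, 82.4 and 77.7 CPM with DMSO in CAMA-1, at 32.0, 33.0 and 28.7 CPM with abemaciclib and at 37.5, 35.6 and 32.7 CPM with palbociclib. In ZR-75-1 it held 109, 117 and 105 counts with DMSO (35.7, 35.9 and 36.3 CPM), 35, 36 and 40 with abemaciclib (11.6, 12.5 and 15.8 CPM) and 66, 79 and 77 with palbociclib (18.5, 26.8 and 22.7 CPM). The drug groups lay below DMSO in both lines, and the DMSO level of ZR-75-1 was within the range of the palbociclib group of CAMA-1. The log2 fold change was −1.41 with abemaciclib (SE 0.12, edgeR adjusted p = 1.33e-12) and −1.22 with palbociclib (SE 0.12, edgeR adjusted p = 2.69e-11) in CAMA-1. In ZR-75-1 it was −1.45 (SE 0.19, edgeR adjusted p = 1.26e-08) and −0.68 (SE 0.17, edgeR adjusted p = 0.00203).

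HMGN1, whose gene lies in the part of chromosome 21 linked to Down syndrome, fell in CAMA-1 and was not called in ZR-75-1. The CAMA-1 levels were 271, 288 and 265 CPM with DMSO, 217, 221 and 220.5 CPM with abemaciclib and 196, 208 and 194 CPM with palbociclib. The 3 groups were apart, with log2 fold changes of −0.35 (SE 0.074, edgeR adjusted p = 1.29e-04) and −0.49 (SE 0.073, edgeR adjusted p = 5.78e-07). The ZR-75-1 levels were 193, 192 and 168 CPM with DMSO, 196, 184 and 180.4 CPM with abemaciclib and 163, 194 and 186 CPM with palbociclib. Here the groups overlapped throughout. The log2 fold change was 0.01 with abemaciclib (95% interval −0.16 to 0.18) and −0.03 with palbociclib (95% interval −0.20 to 0.13), with edgeR adjusted p values of 0.925 and 0.821.

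HMGA1, the AT-hook protein that is abundant in embryonic and many tumour cells, was also called lower in CAMA-1 and not called in ZR-75-1. In CAMA-1 it stood at 198, 173 and 170 CPM with DMSO, 156, 124 and 154 CPM with abemaciclib and 138, 154 and 152 CPM with palbociclib. Every drug library lay below every DMSO library. It changed by −0.33 (SE 0.089, edgeR adjusted p = 0.00232) and −0.32 (SE 0.088, edgeR adjusted p = 0.00368). In ZR-75-1 the range was 101 to 115 CPM with DMSO, 92.7 to 107 CPM with abemaciclib and 88.2 to 114 CPM with palbociclib. These ranges overlapped, with changes of −0.11 (95% interval −0.32 to 0.10) and −0.16 (95% interval −0.37 to 0.04) and edgeR adjusted p values of 0.437 and 0.239. Leaving out palbociclib replicate 1 of ZR-75-1, the highest of its group, gave a call for that drug (−0.29, edgeR adjusted p = 0.0344). By the interaction test below, the response of HMGA1 was not called different between the lines with either drug (edgeR adjusted p = 0.365 and 0.589).

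HMGN3 had the least settled calls. In CAMA-1 its counts were 158, 163 and 188 with DMSO, 116, 100 and 103 with abemaciclib and 140, 97 and 128 with palbociclib. The abemaciclib group lay below DMSO, at 30.7 to 42.9 CPM against 43.2 to 54.6 CPM, and the palbociclib group overlapped it, at 27.6 to 43.5 CPM. The change was −0.53 with each drug (SE 0.15; edgeR adjusted p = 0.00490 and 0.00439). These calls were lost without abemaciclib replicate 1 (−0.43, edgeR adjusted p = 0.0503) and without palbociclib replicate 2 (−0.39, edgeR adjusted p = 0.0597).

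In ZR-75-1 the DMSO libraries of HMGN3 held 141, 243 and 120 counts, or 46.2, 74.5 and 41.5 CPM, with replicate 2 far above the other 2. The abemaciclib libraries held 33.8 to 35.1 CPM, all below DMSO, and the palbociclib libraries held 36.2 to 44.5 CPM, which overlap it. The change was −0.67 with abemaciclib (SE 0.16, edgeR adjusted p = 5.27e-04) and −0.42 with palbociclib (SE 0.15, edgeR adjusted p = 0.0307). Without DMSO replicate 2 these values were −0.36 (edgeR adjusted p = 0.0845) and −0.11 (edgeR adjusted p = 0.674). The palbociclib call was also lost without palbociclib replicate 1 (edgeR adjusted p = 0.120) or replicate 2 (0.0565) and with DESeq2 (0.161). Exons of HMGN3 overlap those of the antisense gene HMGN3-AS1, which had 27 counts over all 18 libraries. Whether strand was used in counting was not given in the sources used here.

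HMGN4, an HMGN family member with a single coding exon that is close in sequence to HMGN2, was called in neither line. It stood at 34.9 to 52.1 CPM with DMSO in CAMA-1, 30.9 to 47.5 CPM with abemaciclib and 41.8 to 52.5 CPM with palbociclib. The ZR-75-1 libraries held 34 to 59 counts with DMSO, 21 to 37 with abemaciclib and 32 to 40 with palbociclib. All groups of a line overlapped. The log2 fold change was −0.12 (95% interval −0.43 to 0.18) and 0.11 (95% interval −0.19 to 0.41) in CAMA-1, and −0.60 (95% interval −1.16 to −0.05) and −0.38 (95% interval −0.91 to 0.14) in ZR-75-1. The lowest edgeR adjusted p was 0.0794, for abemaciclib in ZR-75-1, and this became a call without abemaciclib replicate 2 (−0.88, edgeR adjusted p = 0.0271).

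**Figure D3:**
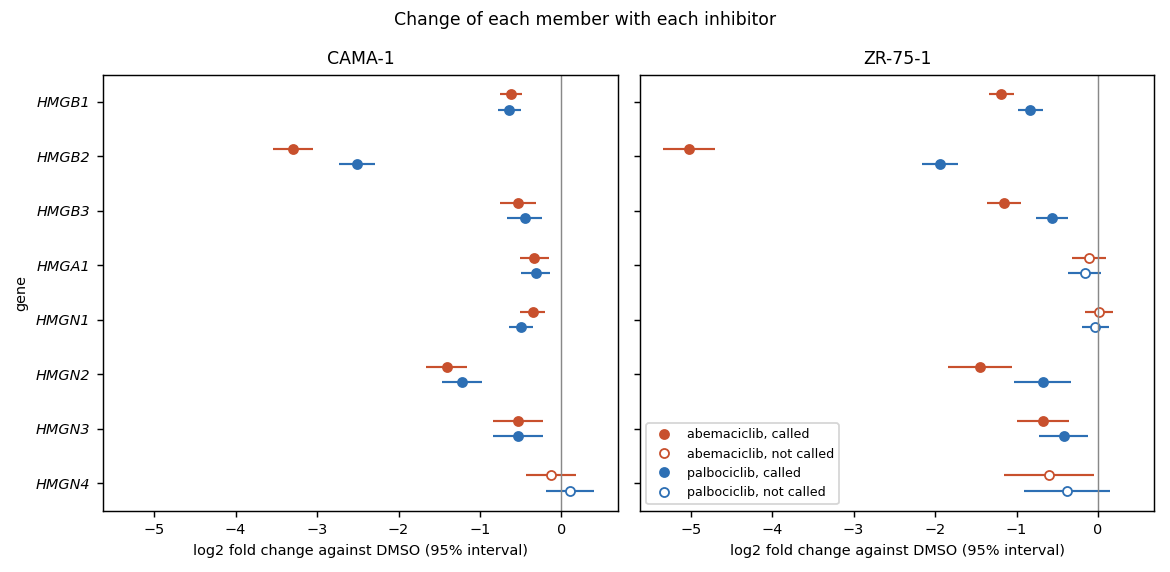
Log2 fold change against DMSO (horizontal axis) of each member (rows) in CAMA-1 and ZR-75-1, for abemaciclib and palbociclib; lines are 95% intervals, filled points were called at an adjusted p under 0.05 and open points were not. HMGB2 lies furthest to the left in both lines, from −5.02 to −1.94, followed by HMGN2 in 3 of the 4 comparisons.

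Summed over the 8 members, the level was 1484 ± 104 CPM (SD, n = 3) with DMSO in CAMA-1, 905 ± 13.7 CPM with abemaciclib and 916 ± 14.9 CPM with palbociclib. The ZR-75-1 sums were 1266 ± 15.4, 618 ± 5.15 and 775 ± 52.5 CPM. In each line every drug library was below every DMSO library. The share of mitochondrial counts moved with treatment in CAMA-1 as well, from 14.8 to 16.6% with DMSO to 22.9 to 26.1% with the drugs, whereas in ZR-75-1 it was 17.3 to 22.6% and 18.5 to 20.5%. With mitochondrial genes left out, HMGB2 changed by −3.30 and −2.51 in CAMA-1 and by −5.02 and −1.93 in ZR-75-1, and the number of members called was 7, 7, 5 and 5.

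The drugs were then compared with each other, at the same dose and time. In CAMA-1, 1 member of 8 differed: HMGB2 was lower with abemaciclib than with palbociclib by 0.79 on the log2 scale (log2 fold change −0.79, SE 0.14, edgeR adjusted p = 3.56e-04). Over all genes, 1.53% were called lower and 0.796% higher in that comparison. The other 7 members had log2 fold changes between −0.23 and 0.14, and the interval of HMGB1 was −0.12 to 0.16. In ZR-75-1, 4 members were lower with abemaciclib and none higher, where 7.94% of all genes were called lower and 5.23% higher. HMGB2 led, at −3.09 (SE 0.18, edgeR adjusted p = 2.32e-20), an 8.49-fold difference. HMGB1 differed by −0.36 (SE 0.079, edgeR adjusted p = 8.16e-04), HMGB3 by −0.59 (SE 0.11, edgeR adjusted p = 5.89e-05) and HMGN2 by −0.77 (SE 0.20, edgeR adjusted p = 0.00572). The HMGN2 call was lost without palbociclib replicate 2 (−0.63, edgeR adjusted p = 0.0601). For HMGN1 the interval was −0.12 to 0.21 and for HMGA1 −0.15 to 0.26. Whether the gap between the drugs differed between the lines was not tested.

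Whether a drug's effect differed between lines was tested as an interaction over all 18 libraries, with the CAMA-1 response subtracted from the ZR-75-1 response on the log2 scale. With abemaciclib, 3 members fell further in ZR-75-1, and HMGN1, called lower in CAMA-1 only, differed in the other direction, beside 10.0% of all genes lower and 8.19% higher. The differences were −0.59 for HMGB1 (SE 0.10, edgeR adjusted p = 1.57e-05), −1.75 for HMGB2 (SE 0.25, edgeR adjusted p = 1.14e-07) and −0.65 for HMGB3 (SE 0.15, edgeR adjusted p = 0.00109). These are all 3 HMGB genes of the set. HMGN1 differed by 0.34 (SE 0.11, edgeR adjusted p = 0.0233), which was lost without DMSO replicate 3 of ZR-75-1 (edgeR adjusted p = 0.0970) and with no filter on low counts (0.0530). HMGN2, which fell to much the same degree in both lines, differed by −0.07 (95% interval −0.52 to 0.38). HMGA1 (0.20, 95% interval −0.08 to 0.48), HMGN3 (−0.16, 95% interval −0.63 to 0.30) and HMGN4 (−0.50, 95% interval −1.10 to 0.10) were not called.

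With palbociclib, 2 members differed between lines and both in the other direction: HMGB2 fell less in ZR-75-1, and HMGN1 fell in CAMA-1 and was not called in ZR-75-1, beside 10.0% of all genes higher and 10.3% lower. HMGB2 differed by 0.55 (SE 0.17, edgeR adjusted p = 0.0136) and HMGN1 by 0.43 (SE 0.11, edgeR adjusted p = 0.00287). The HMGB2 call was lost with DESeq2 (0.56, DESeq2 adjusted p = 0.120), and without palbociclib replicate 2 (0.47, edgeR adjusted p = 0.0576) or 3 (0.46, edgeR adjusted p = 0.0634) of ZR-75-1. HMGN2 was not called at 0.52 (SE 0.20, edgeR adjusted p = 0.0609). It was called with mitochondrial genes left out (0.56, edgeR adjusted p = 0.0410), without palbociclib replicate 1 of CAMA-1 (0.60, edgeR adjusted p = 0.0469) and without palbociclib replicate 1 of ZR-75-1 (0.65, edgeR adjusted p = 0.0221). The abemaciclib and palbociclib interactions share their DMSO libraries.

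**Figure D4:**
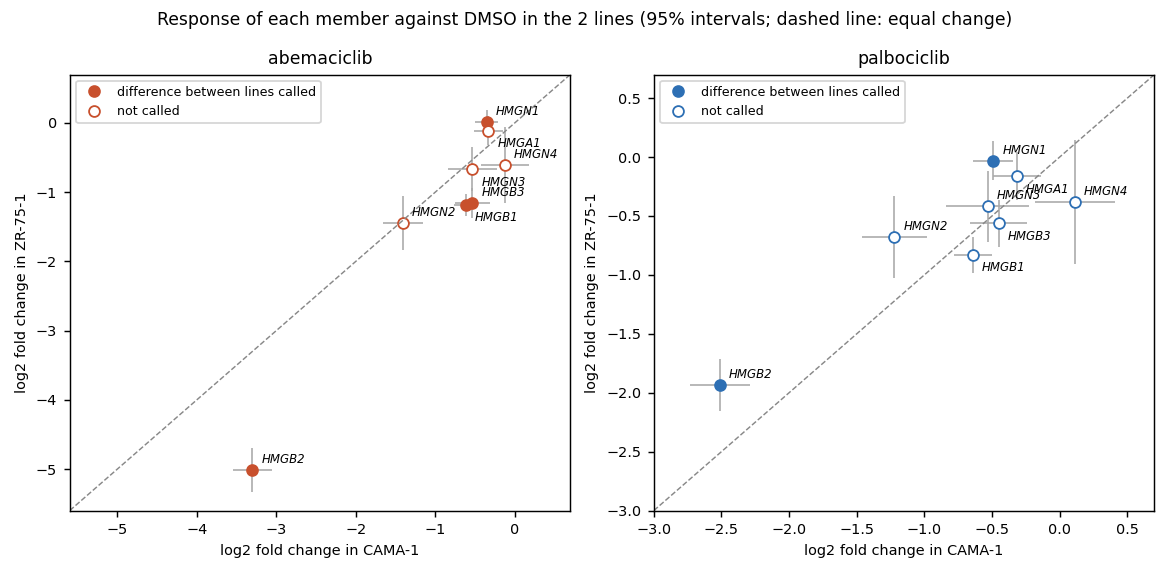
Log2 fold change against DMSO in ZR-75-1 (vertical axis) and in CAMA-1 (horizontal axis) of each member, for abemaciclib (left) and palbociclib (right, a narrower scale); grey lines are 95% intervals, the dashed line marks equal change, and filled points are members whose difference between lines was called. With abemaciclib HMGB1, HMGB2 and HMGB3 lie below the dashed line, and with palbociclib HMGB2 lies above it.

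The DMSO groups gave the level of each member in the 2 lines without a drug. HMGB3 was higher in ZR-75-1, at 127 ± 12.3 CPM against 90.6 ± 1.42 CPM in CAMA-1 (SD, n = 3; log2 fold change 0.48, edgeR adjusted p = 2.57e-05). HMGA1, HMGN1, HMGN2 and HMGN4 were lower there. Over all genes, 31.5% were called higher and 29.8% lower in ZR-75-1, so a call between lines was common. The largest difference was that of HMGN4, at 14.3 ± 3.35 CPM against 44.8 ± 8.88 CPM (−1.62, SE 0.19, edgeR adjusted p = 5.89e-11), followed by HMGN2 at −1.17 (SE 0.13, edgeR adjusted p = 1.27e-11). HMGA1 differed by −0.71 and HMGN1 by −0.57. HMGB2 (0.15, 95% interval −0.06 to 0.36), HMGN3 (0.15, 95% interval −0.16 to 0.45) and HMGB1 (−0.14, 95% interval −0.29 to −0.0013) were not called. HMGB1 was called when any of 4 of the 6 DMSO libraries was left out, namely replicates 2 and 3 of CAMA-1 and of ZR-75-1, with values of −0.25, −0.20, −0.21 and −0.18.

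Across the 6 groups, the levels fell into different orders. For HMGB2 the order from high to low was DMSO in ZR-75-1 and in CAMA-1, which overlapped, then palbociclib in ZR-75-1, palbociclib in CAMA-1, abemaciclib in CAMA-1 and abemaciclib in ZR-75-1, with no further overlap between neighbours. HMGB1 had the DMSO groups on top, then the CAMA-1 drug groups, which overlapped, then palbociclib and abemaciclib in ZR-75-1. In contrast, HMGA1, HMGN1 and HMGN4 were ordered by line: every CAMA-1 group had a higher mean than every ZR-75-1 group, although for HMGN1 palbociclib in CAMA-1 overlapped abemaciclib in ZR-75-1. For HMGN4 no library of ZR-75-1 exceeded 18.1 CPM and none of CAMA-1 was below 30.9 CPM. For HMGN3 all neighbouring groups in the order overlapped.

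The members' patterns were compared over the 18 libraries, as log2 CPM with the mean of each line subtracted. HMGB2 correlated with HMGB3 at Pearson's r of 0.95, with HMGN2 at 0.95 and with HMGB1 at 0.93, against 0.40 with HMGN1 and 0.48 with HMGA1. The correlation of HMGN1 with HMGN4 was 0.00. These values describe 18 points that fall into 3 treatments per line, and the genes share the libraries and their scaling. Among 6909 other genes that averaged 50 counts or more, the 3 nearest to HMGB2 were AURKB, a mitotic kinase (r = 0.99), UBE2C, a ubiquitin-conjugating enzyme of mitotic exit (0.99), and PRR11 (0.99). Nearest to HMGN2 were ANLN, an actin-binding protein of cytokinesis (0.99), HNRNPH1 (0.98) and SFPQ (0.98). Nearest to HMGB3 were CDC25B, RAD21 and STMN1, all at 0.96. Close to HMGB1 were SLC38A2 and HNRNPD, also at 0.96. HMGN1 was nearest to CYCS (0.93), HMGN3 to MCMBP (0.86), HMGN4 to TBRG4 (0.84) and HMGA1 to UQCRC1 (0.84), with lower values than for the HMGB genes.

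Other genes with an HMG domain or of the same families moved in both directions. Of 21 listed, 17 could be tested in CAMA-1 and 18 in ZR-75-1. With abemaciclib 6 rose and 5 fell in CAMA-1 and 1 rose and 6 fell in ZR-75-1; with palbociclib 5 rose and 4 fell, and 2 rose and 6 fell. Their medians were 0.07, −0.12, 0.06 and −0.20 in that order. SSRP1, the HMG-box subunit of the histone chaperone FACT, fell in all 4, by −1.34 and −1.24 in CAMA-1, compared with −1.29 and −0.83 in ZR-75-1 for abemaciclib and palbociclib. NSD2, a histone methyltransferase, changed by −1.04 and −0.999 and by −1.26 and −0.71, all called. HMGN5, the X-linked HMGN relative, changed by −0.74 and −0.80 and by −0.49 and −0.44, again all called. LEF1, a Wnt pathway transcription factor, rose in ZR-75-1 by 0.95 and 0.98.

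Linker histones, which HMGB and HMGN proteins compete with on chromatin, included several genes with lower transcript levels. H1-2, H1-4 and H1-10 were called lower with both drugs in both lines, H1-5 was called lower with both in ZR-75-1 and did not pass the filter in CAMA-1, and H1-1 and H1-3 passed it in neither line. The ZR-75-1 libraries held 13 to 14 counts of H1-5 with DMSO, 3 to 8 with palbociclib and 0 with abemaciclib, so its call there rests on few counts. H1-10 changed by −1.98 with abemaciclib and −1.95 with palbociclib in CAMA-1 and by −2.69 and −1.27 in ZR-75-1. H1-4 changed by −3.10 and −2.50, and by −2.83 and −1.75, also on few counts: 1 to 5 and 4 to 7 per drug library in CAMA-1, and 2 to 7 and 6 to 19 in ZR-75-1. Replication-dependent H1 genes such as H1-4 make mainly transcripts without a poly(A) tail, which this kit captures poorly.

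Among the partners of HMGB2 in the SET complex, which joins histone chaperones to DNA repair enzymes, 5 of 7 genes were tested in CAMA-1 and 6 in ZR-75-1. With abemaciclib 3 were called lower in CAMA-1, and 2 lower and 2 higher in ZR-75-1. With palbociclib 4 were lower and 1 higher in CAMA-1, and 2 lower and 1 higher in ZR-75-1. SET changed by −0.51 and −0.43 in CAMA-1 and by −0.56 and −0.43 in ZR-75-1, and ANP32B by −0.78 and −0.66 and by −0.85 and −0.79, all called. NME1 went down with palbociclib in CAMA-1 (−0.21) and up with both drugs in ZR-75-1 (0.26 and 0.28). Of 14 chromatin assembly and histone chaperone genes, 13 were tested in each line. In CAMA-1 7 fell and 2 rose with each drug. In ZR-75-1 7 fell and 2 rose with abemaciclib and 3 fell and 1 rose with palbociclib. ASF1B, a chaperone of newly made histones, changed by −2.14 and −1.53 in CAMA-1 and by −1.68 and −0.67 in ZR-75-1. Of 8 genes for HMGB1 export, import and reception, 4 were tested, since AGER, TLR2, TLR4 and HAVCR2 were too low. In CAMA-1 2 were lower and 1 higher with each drug, and in ZR-75-1 2 were lower with abemaciclib. XPO1, the nuclear export receptor, changed by −0.77 and −0.79 in CAMA-1, and CD24, a surface protein that binds HMGB1, rose there by 1.15 and 1.04.

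Most of the listed proliferation genes were lower with the drugs than with DMSO, as HMGB2 was. The summed level of 10 reference genes was 2763 to 2949 CPM with DMSO in CAMA-1, 485 to 507 CPM with abemaciclib and 738 to 761 CPM with palbociclib. In ZR-75-1 the ranges were 2504 to 2637, 217 to 239 and 1164 to 1225 CPM. The order of the 6 groups by this sum was that of HMGB2 except for the DMSO groups, which were the other way round. TOP2A was the largest part of the sum, with DMSO means of 1648 CPM in CAMA-1 and 1505 CPM in ZR-75-1. Single genes of the list did not all keep this order. In ZR-75-1, MCM2 averaged 81.5 CPM with DMSO and 82.9 CPM with palbociclib. All 10 genes were called lower in 3 of the comparisons with DMSO and 8 of 10 with palbociclib in ZR-75-1. By the interaction test with abemaciclib, 4 of the 10 were called lower and 2 higher, beside 10.0% and 8.19% of all genes. With palbociclib all 10 were called higher, beside 10.0% of all genes. MKI67, the Ki-67 antigen gene, changed by −3.27 and −2.40 in CAMA-1 and by −5.88 and −1.36 in ZR-75-1, for abemaciclib and palbociclib. The part of cell division in the HMG transcript levels was not tested.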

How the data were processed

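RNA from 18 cultures of 2 breast cancer cell lines was read with a QuantSeq 3′ kit. The deposited table holds raw read counts per gene: per the labels and the study's methods, the authors trimmed reads with BBDuk, aligned them to hg38 with STAR 2.7.5b and counted them with featureCounts 2.0.1 on a GENCODE annotation. The labels and the methods name different strand versions of the kit, and the strand setting, the treatment of multi-mapped reads and molecular identifiers were not given in the sources used here. Of 60656 rows, 35543 had no count in any library, and rows without a symbol held 1.04% of counts.

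The 9 libraries of a line were fitted together in edgeR 4.0.16 under R 4.3.3: filterByExpr, TMM scaling, glmQLFit and glmQLFTest, two-sided, with Benjamini-Hochberg adjustment over the genes kept (11053 for CAMA-1, 11017 for ZR-75-1). Comparisons between lines used a single fit of 18 libraries and 11987 genes. Log2 fold changes of a line therefore differ slightly between fits. CPM values use the TMM factors of the 18-library fit. SE was taken as the absolute log2 fold change before edgeR's shrinkage by a prior count, divided by the root of F. Intervals are at 95% and centred on the log2 fold change reported. Correlations used log2 CPM with a prior count of 2. At these depths 3 counts stood for 0.723 to 1.30 CPM before scaling, and statements on counts cover counting error only. The fits of each line were tested on simulated data, for abemaciclib against DMSO only. The 18-library fit and DESeq2 were not tested in this way. Alternatives were RLE and upper-quartile scaling, no filter on low counts, DESeq2 1.42.0 (the study's tool for differential expression), a replicate block, removal of mitochondrial genes, pseudogene counts added to the parent gene, a fit of the 2 groups compared, a fit of all libraries, and each library left out.

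The members and gene lists were chosen with earlier results of these data known. All 8 members were tested in every comparison, and a member not named in a comparison was not called there. From each list, the genes named are among the 3 largest absolute log2 fold changes of called genes in some comparison, and MKI67 stands for proliferation. Gene positions are from GENCODE release 44 on GRCh38, and upstream sequences from RefSeq on GRCh38.p14. Figures were drawn with matplotlib 3.10.9. One linker histone gene of the fixed lists is not reported here, and its list is therefore given gene by gene in place of a count, a form chosen after the values were seen.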

Additional observations from a re-analysis of the deposited data

Results flagged for a closer look

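For 6 results the effect of a drug differed between the lines by an interaction test, with the CAMA-1 response subtracted from the ZR-75-1 response on the log2 scale (edgeR, adjusted over 11987 genes). With abemaciclib the difference was −0.59 for HMGB1 (adjusted p = 1.57e-05), −1.75 for HMGB2 (adjusted p = 1.14e-07) and −0.65 for HMGB3 (adjusted p = 0.00109), so these transcripts fell further in ZR-75-1. For HMGN1 abemaciclib gave 0.34 (adjusted p = 0.0233) and palbociclib 0.43 (adjusted p = 0.00287), where the transcript fell in CAMA-1 and was not called in ZR-75-1. The abemaciclib call was lost without DMSO replicate 3 of ZR-75-1 (adjusted p = 0.0970) and with no filter on low counts (0.0530). For HMGB2 with palbociclib it was 0.55 (adjusted p = 0.0136), in the direction opposite to that of the abemaciclib response. That call was lost with DESeq2 (adjusted p = 0.120) and without palbociclib replicate 2 (edgeR adjusted p = 0.0576) or 3 (0.0634) of ZR-75-1. The 2 drugs share the DMSO libraries of each line.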

How the results depend on the processing

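For the 8 members in 9 comparisons, 72 log2 fold changes were recomputed under the other settings and with libraries left out, giving 1128 values. None changed sign while called, 1106 kept their side of the threshold, 13 lost a call and 9 gained one. Of the 72, 61 kept their side of the threshold throughout, among them every HMGB1, HMGB2 and HMGB3 change with a drug against DMSO, and the losses and gains of the other 11 are given with their results above. With libraries left out in turn, the number of members that differed between lines with palbociclib was 1 to 3 (2 with all libraries), and DESeq2 gave 1; the cause was not tested. The number of all genes that differed between the drugs in CAMA-1 was 257, and 151 to 197 with a library left out. In ZR-75-1 that number was 1451, and 898 with DESeq2; the cause was not tested. Libraries with the same replicate number did not deviate together: over 18 such pairs the correlation of deviations was −0.08 to 0.04. A replicate block changed no member's call, for example giving 7 members called with abemaciclib in CAMA-1, an HMGB2 change of −3.30 there, and 4358 called genes in place of 4457. No scaling moved the median of all genes by 0.1 or more. Depth limits HMGN4 and HMGB2 in ZR-75-1 most, with 21 to 37 and 17 to 31 counts per abemaciclib library.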

Other observations

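Genes linked to senescence, for which loss of HMGB2 and of the lamin gene LMNB1 is often described, did not move alike in the 2 lines. Of 14 listed genes, 8 could be tested for CAMA-1, where 6 were called higher and 2 lower with each drug, and 6 in ZR-75-1, where 2 were higher and 4 lower with abemaciclib and 1 higher and 4 lower with palbociclib. LMNB1 was lower in all 4 comparisons, with log2 fold changes of −3.18 and −2.25 in CAMA-1, compared with −2.49 and −1.41 in ZR-75-1 for abemaciclib and palbociclib. GDF15, a stress-induced cytokine gene, changed by 3.01 and 4.62 in CAMA-1 and by −3.16 and −1.62 in ZR-75-1, all called. The difference between lines was −6.19 with abemaciclib (edgeR adjusted p = 1.10e-31) and −6.26 with palbociclib (edgeR adjusted p = 1.94e-35). CDKN1A, the gene of the CDK inhibitor p21, differed between lines by −4.49 (edgeR adjusted p = 7.89e-26) and −2.70 (edgeR adjusted p = 2.39e-16). With abemaciclib and palbociclib, its mean rose from 9.77 to 40.3 and 32.0 CPM in CAMA-1. In ZR-75-1 it went down from 145 to 26.2 and 70.8 CPM. CDKN2A, another listed gene, had lower means with both drugs in both lines. They went from 77.9 to 50.8 and 53.6 CPM in CAMA-1, and from 26.0 to 4.37 and 12.7 CPM in ZR-75-1. The other listed genes, 6 of them for CAMA-1 and 8 for ZR-75-1, were too low to test.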
